A study of Mus musculus with 38 samples.

Results

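ChIP-seq peaks around 4 genes of T cell lineage choice were examined, namely Cd4, Cd8a and Cd8b1, which encode the coreceptors, and Zbtb7b, which encodes the transcription factor ThPOK. A peak was counted when its centre lay in the mm10 body of a gene or up to 50 kb to either side, and each peak was counted once. Because the windows of the neighbours Cd8b1 and Cd8a run into each other, they formed a single Cd8 window, which left 3 windows. Of the 359759 peaks in 17 lists, 210 met this rule. The Cd4 window held 105 of them, the Zbtb7b window held 92, and the Cd8 window held 13. Peaks of different lists that touched were joined, which gave 51 sites, with 26 around Cd4, 18 around Zbtb7b and 7 around Cd8.

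All samples came from cultured lymphoid progenitor (LP) cells that express Cas9, which the study calls Cas9-LP lines. They were made from fetal liver progenitors of Ebf1-deficient mice with Cas9 knocked in at Rosa26, so every group lacked Ebf1 and expressed Cas9. LP cells were grown on OP9 stroma, and Phase 1 and Phase 2 cells on OP9-DLL4 stroma, which presents a Notch ligand. In the study, Phase 1 stands for 2 days of Notch stimulation and Phase 2 for a longer one. The antibodies recognized RUNX1, the insulator protein CTCF, Med12 of the Mediator complex, p300, which acetylates histones, or the intracellular domain of Notch1 (Notch1-IC). Some cells carried guide RNAs against Ctcf, Cbfb or Med12 (sgCTCF, sgCbfb, sgMed12) or a control guide (sgCont). The study describes its ChIP-seq of cells deficient in Cbfb, Ctcf or Med12 as noisier and limited by cell number. Each list combined 2 replicates, so nothing here can be set against the spread between replicates, and the comparisons are descriptions. Peak lists give no transcript levels, so the identity of the cells was not checked by markers. Scores are the deposited peak scores, and a percentile gives the rank of a score within its own list, where 100 is the highest.

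CD4 and CD8 are the coreceptors with which T cells engage MHC class II and class I molecules, and progenitors at the stages studied here precede their expression. RUNX proteins, which bind DNA as heterodimers with CBFb, are known for repressing Cd4 through a silencer in its first intron, and for acting on an enhancer between Cd8b1 and Cd8a. ThPOK directs cells to the CD4 helper fate, and its gene has a silencer upstream of the distal promoter that RUNX proteins bind in cells of the CD8 lineage. The exact limits of these elements were in none of the files used here, so peaks were placed by distance from a gene start and not matched to a named element.

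The DNA under 6 Phase 1 RUNX1 peaks is shown, chosen among the sites near the 4 genes that are described below. The sequences are from GRCm38 (mm10), span at most 200 bp around the peak centre and run 5′ to 3′ on the strand of the gene. Capitals mark matches to the RUNX core strings TGTGGT or TGCGGT on either strand, so that a match on the opposite strand reads ACCACA.
Cd4 intron 1, chr6:124886130-124886329, minus strand: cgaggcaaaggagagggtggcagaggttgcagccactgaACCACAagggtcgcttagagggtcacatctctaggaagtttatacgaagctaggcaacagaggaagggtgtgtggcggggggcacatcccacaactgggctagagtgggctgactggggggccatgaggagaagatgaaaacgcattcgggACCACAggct
Cd4 10.3 kb upstream, chr6:124898409-124898608, minus strand: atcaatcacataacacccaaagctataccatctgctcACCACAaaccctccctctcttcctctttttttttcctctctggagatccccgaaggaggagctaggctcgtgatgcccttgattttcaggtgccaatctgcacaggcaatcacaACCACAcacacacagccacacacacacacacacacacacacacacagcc
Cd4 12.3 kb upstream, chr6:124900468-124900667, minus strand: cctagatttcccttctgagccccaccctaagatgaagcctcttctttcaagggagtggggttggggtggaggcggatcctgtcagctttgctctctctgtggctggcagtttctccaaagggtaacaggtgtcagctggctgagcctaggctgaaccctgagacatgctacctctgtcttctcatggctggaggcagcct
Cd8b1 6.11 kb upstream, chr6:71316575-71316774, plus strand: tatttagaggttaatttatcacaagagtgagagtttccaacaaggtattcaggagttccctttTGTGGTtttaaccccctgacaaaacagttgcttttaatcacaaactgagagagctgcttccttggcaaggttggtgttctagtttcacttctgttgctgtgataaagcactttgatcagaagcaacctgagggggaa
Zbtb7b 2.92 kb upstream, chr3:89396184-89396383, minus strand: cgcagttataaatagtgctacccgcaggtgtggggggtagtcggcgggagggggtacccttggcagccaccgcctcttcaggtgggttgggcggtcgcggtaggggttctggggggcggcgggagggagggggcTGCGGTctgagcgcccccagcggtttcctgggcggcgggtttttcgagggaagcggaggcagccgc
Zbtb7b distal promoter, chr3:89393679-89393825, minus strand: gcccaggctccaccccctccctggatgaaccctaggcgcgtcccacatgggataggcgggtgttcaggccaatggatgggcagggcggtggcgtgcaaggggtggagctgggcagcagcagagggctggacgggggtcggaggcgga
The Cd4 intron 1 sequence and the one 10.3 kb upstream each held 2 matches, those upstream of Cd8b1 and Zbtb7b held 1 each, and the remaining 2 held none. A sequence 13.1 kb upstream of Cd4 was also read, held 1 match and is not shown. The promoter sequence was limited to 147 bases, because bases in an annotated untranslated region were cut off, and the annotated gene extends farther upstream. A match is a string of letters and not a measured site of binding.

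**Figure D1:**
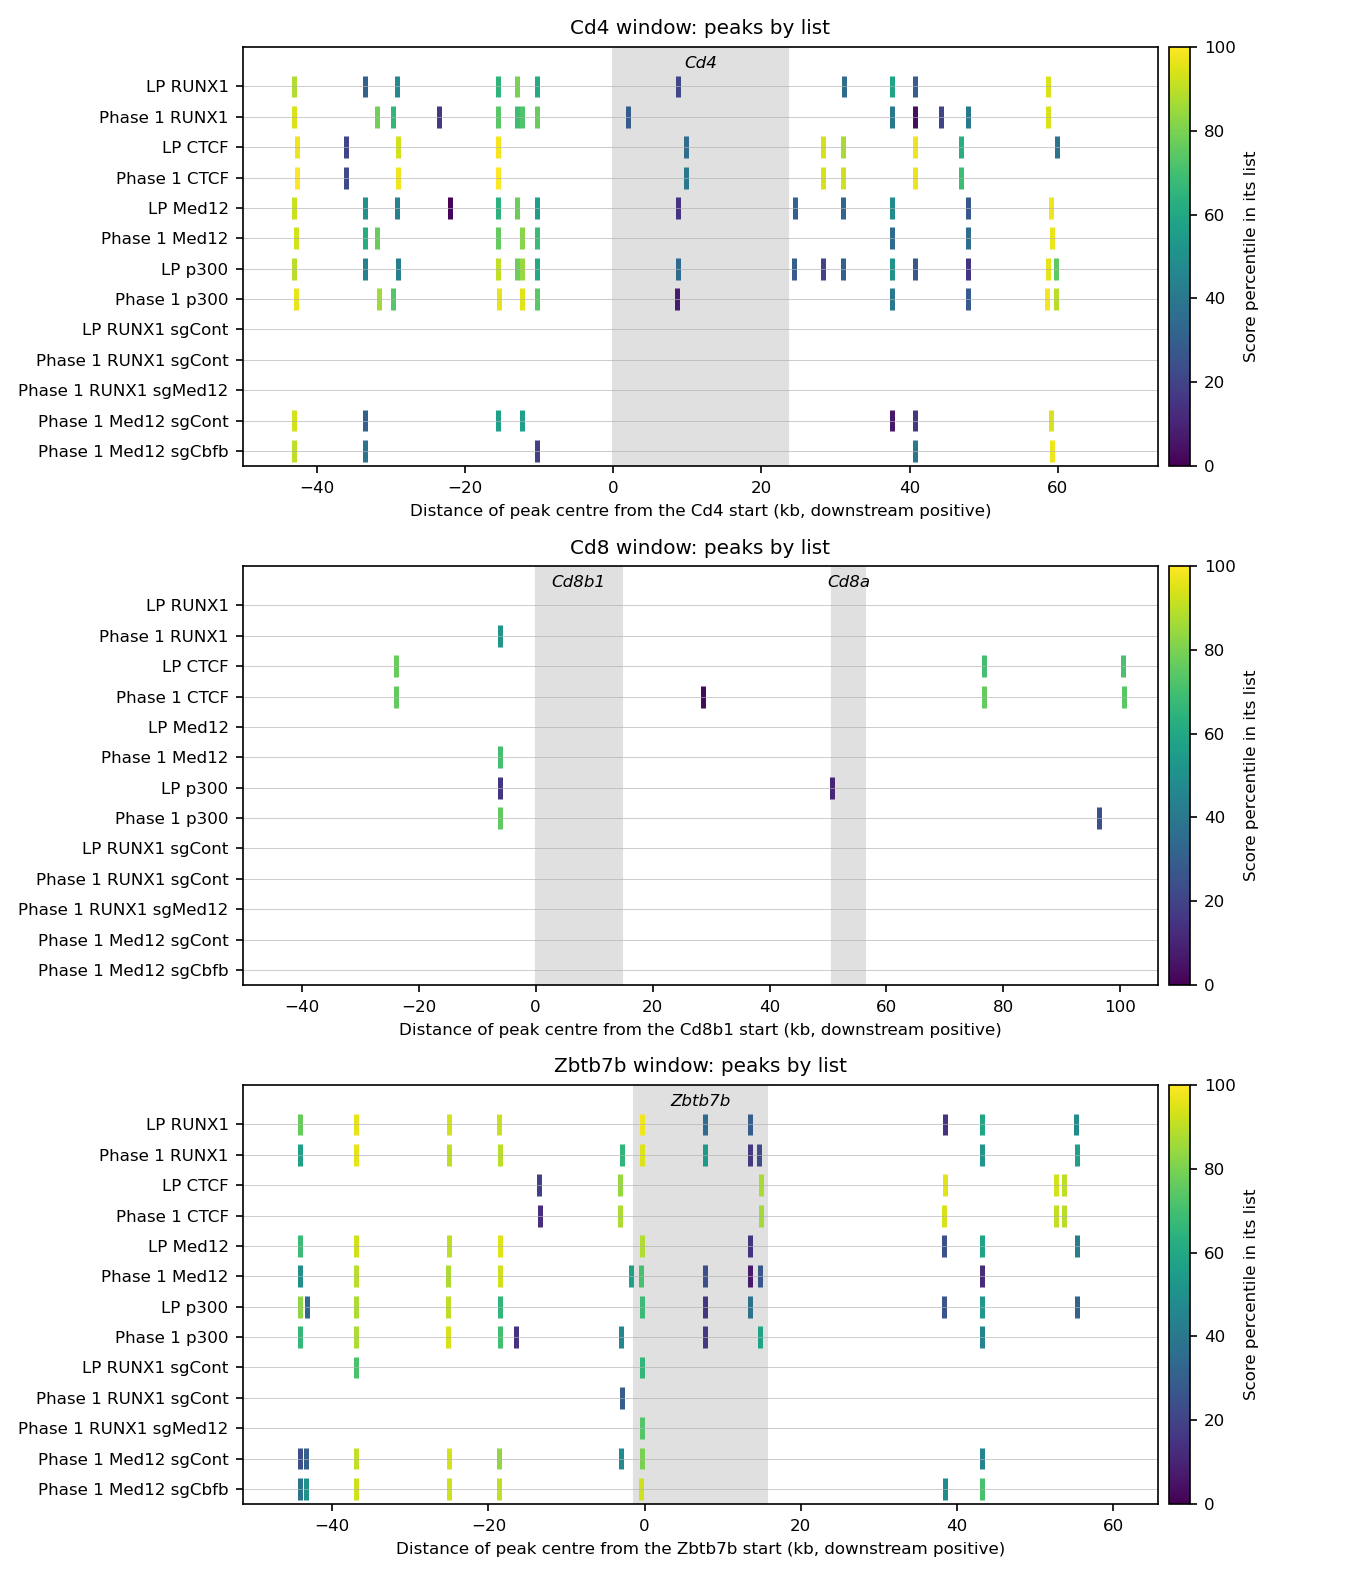
Each tick is a peak, placed by the distance of its centre from the start of Cd4, Cd8b1 or Zbtb7b (x axis, kb, downstream positive), with 1 row per list and colour for the score percentile within that list; grey marks gene bodies, and lists with no peak in any window are left out. The Cd4 and Zbtb7b windows carry 105 and 92 ticks and the Cd8 window 13.

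Phase 1 cells had a RUNX1 peak in the first intron of Cd4 that the LP list lacked. The Cd4 gene (ENSMUSG00000023274.14) lies on the minus strand of chromosome 6 from 124864692 to 124888221. The Phase 1 RUNX1 peak at chr6:124886065-124886393 was centred 1.99 kb after the Cd4 start, with a score of 26.8, at the 28.7th percentile of its list. None of the other 16 lists had a peak at this site, and the nearest LP RUNX1 peak was 6362 bp away. It was thus a weak RUNX1 peak that stood alone, without CTCF, Med12 or p300.

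The other RUNX1 peak within the Cd4 body had the opposite stage. In intron 2, 8.69 kb after the start, LP cells had RUNX1 (24.2, percentile 21.1), Med12 (21.9, percentile 15.2) and p300 (35.0, percentile 34.1). In Phase 1 only p300 was listed there, with a score of 17.6 at percentile 7.94. A CTCF pair in intron 3 (41.8 in LP and 50.3 in Phase 1) completed the peaks inside the gene. No list had a peak at the Cd4 start.

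The region upstream of Cd4 was occupied more densely, with 4 RUNX1 sites between 10.3 and 15.6 kb before the start. At 10.3 kb upstream RUNX1 was listed in both stages (61.1 in LP and 93.4 in Phase 1, percentiles 60.3 and 76.7), as were Med12 (55.6 and 60.9) and p300 (72.1 and 88.2). Among the lists with guides, this site had Med12 with sgCbfb (20.9) and not with sgCont. No CTCF peak was listed there.

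At 12.3 kb upstream RUNX1 was Phase 1-specific, meaning that no LP RUNX1 peak overlapped it. Its score was 81.4, at percentile 72.5, and Phase 1 Med12 (90.9, percentile 82.4) and p300 (252.8, percentile 95.4) lay on it. LP cells already had p300 there (152.5, percentile 84.6) but no Med12. The site 13.1 kb upstream mirrored this, with RUNX1 in both stages (105.6 and 72.2) and Med12 (99.9) and p300 (119.5) in LP alone. These neighbours were close, and the LP RUNX1 peak of the second lay 383 bp from the Phase 1-specific peak of the first, so that the stage label of the first was lost when peaks within 500 bp counted as overlapping. Med12 in sgCont cells was listed at 12.3 kb upstream (40.2) and not in sgCbfb cells.

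The fourth site, 15.6 kb upstream and past the 3' end of Lag3, had CTCF, RUNX1, Med12 and p300 in both stages. CTCF scored 319.1 in LP and 465.5 in Phase 1, at percentiles 98.6 and 99.3, and RUNX1 69.3 and 85.3. Med12 scored 69.4 and 76.7, and p300 197.8 and 281.7. Here too Med12 was listed with sgCont (39.8) and not with sgCbfb.

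Farther from Cd4, RUNX1 peaks fell mainly on neighbouring genes. The highest scores in the window were at the Cdca3 start (196.5 in LP and 205.2 in Phase 1) and the Mlf2 promoter (140.1 and 201.3), both present in each stage. The third-ranked RUNX1 peak of the window was the site 13.1 kb upstream in LP, and in Phase 1 a stage-specific peak 31.9 kb upstream (99.5, percentile 78.6) with Phase 1 Med12 (76.8) and p300 (138.3). Most of the remaining stage-specific peaks were weaker. Those of Phase 1 lay at the promoters of Gnb3 (34.8), Lag3 (20.8) and Ptms (66.8) and in intron 13 of P3h3 (22.5). Those of LP lay in intron 1 of P3h3 (33.2), in intron 1 of Ptms (44) and 33.5 kb upstream (30.6).

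At Ptms the stage change was a shift over a short distance. The LP RUNX1 peak sat on a CTCF site (232.8 in LP and 355.9 in Phase 1), and the Phase 1 peak at the promoter lay 227 bp beyond its end, off the CTCF site. Med12 (42.1) and p300 (44.4) were listed with the LP peak in LP only, and p300 (86.4) with the Phase 1 peak in Phase 1 only. With peaks within 500 bp counted as overlapping, neither was stage-specific.

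**Figure D2:**
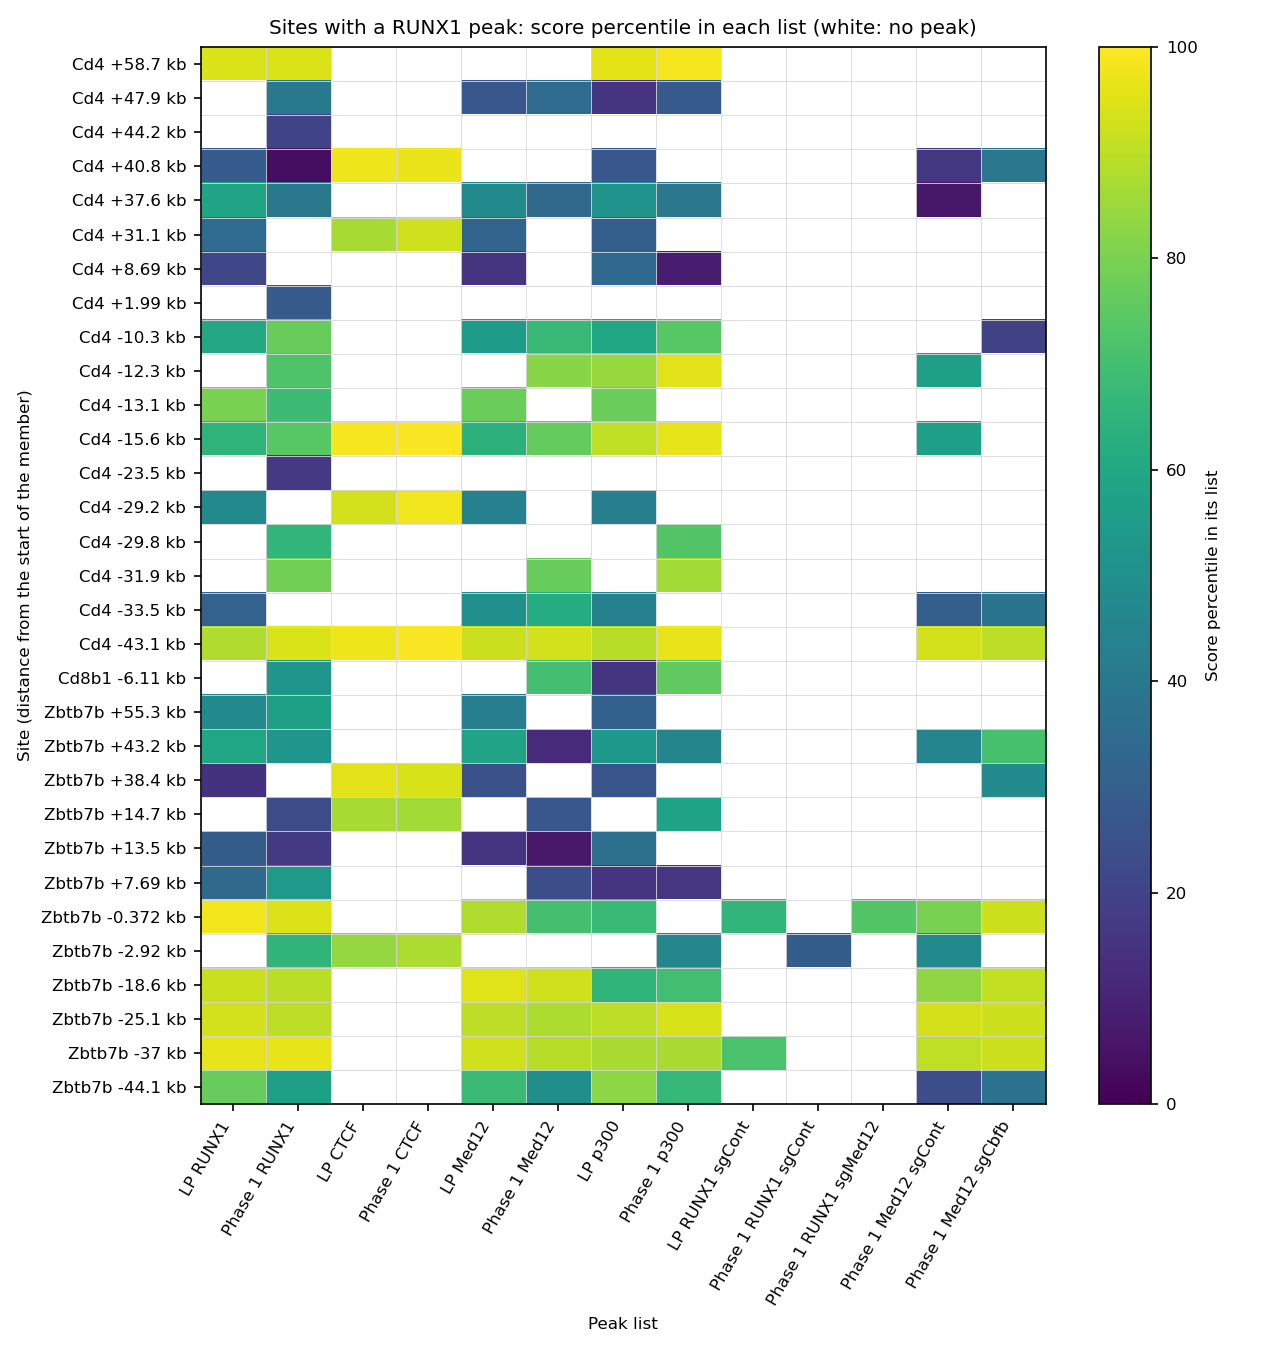
Rows are the sites with an LP or Phase 1 RUNX1 peak, named by distance (kb) from the nearest gene start of the set, columns are peak lists, and colour is the score percentile within the list, with white for no peak. The Cd4 site at +1.99 kb has a single coloured cell, Phase 1 RUNX1, and the Cd8b1 site at -6.11 kb is the only Cd8 row.

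Around the Cd8 genes occupancy was sparse. Cd8b1 (ENSMUSG00000053044.8) and Cd8a (ENSMUSG00000053977.13) lie on the plus strand of chromosome 6, from 71322788 to 71337494 and from 71373427 to 71379173. LP cells had no RUNX1 or Med12 peak in the window, as was so for 24.7% (RUNX1) and 25.1% (Med12) of all protein-coding genes in theirs. Phase 1 cells had 1 of each in the Cd8 window. Both lay at 1 site 6.11 kb before the Cd8b1 start, in an intron of Smyd1. RUNX1 scored 46.5 (percentile 52.2), Med12 64.9 (percentile 70.3) and p300 92.7 (percentile 75.5). Only p300 had a peak there in LP, with a score of 21.9 at percentile 15.5. The nearest LP RUNX1 peak was 44803 bp away.

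Between Cd8b1 and Cd8a, where a known Cd8 enhancer lies, no list had a RUNX1, Med12 or p300 peak. A Phase 1 CTCF peak 22.0 kb before Cd8a was the single entry, with a score of 17.2 at percentile 2.45. Even in whole windows, 22.1%, 21.1% and 19.2% of all protein-coding genes had no Phase 1 peak of RUNX1, Med12 and p300. No share was counted for stretches as short as this one, so its lack of these peaks is not read as particular to it. The Cd8a start had an LP p300 peak (19.4, percentile 10.3) and nothing else. CTCF occupied 3 further sites in both stages, with scores from 122.5 to 150.9, and a Phase 1 p300 peak (25) lay in an intron of Rmnd5a. No list from guide-bearing cells had a peak in the Cd8 window. For Phase 1 Med12 this was so for 29.4% (sgCont) and 29.6% (sgCbfb) of all protein-coding genes, and the RUNX1 lists with guides were short.

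The distal promoter of Zbtb7b was among the most strongly scored RUNX1 sites in either stage. The gene (ENSMUSG00000028042.15) lies on the minus strand of chromosome 3 from 89377644 to 89394776, and distances are from the start of transcript Zbtb7b-201 at 89393362. The promoter site was centred 0.372 kb before that start. RUNX1 scored 274.3 in LP and 207.6 in Phase 1, at percentiles 97.9 and 94.7. Med12 was present in both stages (145.1 and 65.2), and p300 in LP only (90.0, percentile 67.9). This was also 1 of the few sites where the short RUNX1 lists of guide-bearing cells had a peak, with scores of 30.2 in LP sgCont and 26.0 in Phase 1 sgMed12. Med12 was listed with sgCont (66.3, percentile 79.9) and with sgCbfb (107.5, percentile 92.4). RUNX1 and Med12 were thus listed at the promoter in both stages, and Med12 also with the Cbfb guides.

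A Phase 1-specific RUNX1 peak lay farther upstream, at chr3:89396119-89396447, 2.92 kb before the start and in an intron of the noncoding gene Gm15417. It scored 66.1 (percentile 65.5) and was listed again in Phase 1 sgCont cells (19.9). CTCF occupied the site in both stages (180.3 and 212.7), and p300 in Phase 1 (40.7). Med12 was listed there in sgCont cells (34.0) and neither in sgCbfb cells nor in the Phase 1 list without guides. Phase 1 Med12 instead had a peak of its own 1.68 kb upstream (46.9, percentile 57.0). The nearest LP RUNX1 peak was the promoter peak, 2205 bp away.

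Inside Zbtb7b, RUNX1 peaks were weaker. In intron 1, 7.69 kb after the start, RUNX1 was listed in both stages (33.0 and 48.3), with p300 in both (21.9 and 20.7) and Med12 in Phase 1 (23.4). In exon 3, 13.5 kb after the start, it was also listed in both (29.2 and 21.0), with Med12 in both (22.1 and 17) and LP p300 (37.7). In the 3' UTR, 14.7 kb after the start, RUNX1 (23.7), Med12 (25) and p300 (55.3) were listed in Phase 1 alone, overlapping a CTCF site of both stages (192.9 and 203.9). An LP-specific peak (21.0, percentile 14.5) lay on a CTCF site in an intron of Dcst1, 38.4 kb after the start, with CTCF scores of 254.0 and 266.8. The strongest other RUNX1 peaks of the window were promoter peaks of neighbours, at Pygo2 (226.2 in LP and 238.4 in Phase 1), Shc1 (183.1 and 156.3) and Flad1 (169.4 and 153.7). Pygo2 also had an LP sgCont RUNX1 peak (31.8).

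Over the 3 windows together, RUNX1 peaks were stage-specific about as often as elsewhere. Of 26 Phase 1 RUNX1 peaks, 10 were Phase 1-specific (38.5%, 95% Wilson interval 22.4 to 57.5), against 30.7% of the whole list. Of 21 LP peaks, 5 were LP-specific (23.8%, 10.6 to 45.1), against 16.8%. Both intervals include the share of the whole list. By window, 7 of 14 Phase 1 peaks were specific around Cd4, 2 of 11 around Zbtb7b and the 1 peak around Cd8. Intervals cover counting error over peaks only, and neighbouring peaks are not independent.

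CTCF peaks were mostly shared between stages, with 1 of 19 peaks specific in LP (5.26%, against 9.55% of the list) and 1 of 19 in Phase 1 (5.26%, against 8.35%). For Med12, 8 of 22 LP peaks were specific (36.4%, 19.7 to 57.0, against 19.5%, just below the interval but inside it with 100 kb windows, peaks within 500 bp or lists of equal length) and 6 of 20 Phase 1 peaks (30.0%, 14.5 to 51.9, against 38.2%). The LP-specific share of p300 was above that of its list, with 13 of 29 peaks (44.8%, 28.4 to 62.5) against 20.7%. The Phase 1-specific share of p300 was 6 of 22 peaks (27.3%, 13.2 to 48.2), against 41.6%. The whole Med12 and p300 lists were longer in Phase 1 (39132 against 30020 peaks, and 49116 against 36182), whereas in the Cd4 window Med12 went from 13 to 9 peaks and p300 from 16 to 11. The Zbtb7b window had 9 and 10 Med12 peaks and 11 and 9 p300 peaks.

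RUNX1 peaks were also compared with the other factors of the same stage. All 21 LP RUNX1 peaks had an LP p300 peak (100%, 84.5 to 100, against 90.8% of the list), and 18 had Med12 (85.7%, 65.4 to 95, against 84.7%). In Phase 1, 17 of 26 had Med12 (65.4%, 46.2 to 80.6, against 86.0%) and 18 had p300 (69.2%, 50.0 to 83.5, against 87.8%). Both Phase 1 shares were below those of the list, although for Med12 the interval included the list's share with 100 kb windows (34 of 44, 77.3%, 63.0 to 87.2) or without promoter peaks (10 of 15, 66.7%, 41.7 to 84.8, against 84.1%). Of the 3 windows that of Cd4 was the lowest, with 7 of 14 peaks with Med12 and 9 of 14 with p300. CTCF was shared by 5 of 21 RUNX1 peaks in LP (23.8%, against 23.2%) and by 4 of 26 in Phase 1 (15.4%, against 15.7%).

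Among the stage-specific RUNX1 peaks, Phase 1 Med12 was found at 5 of 10 Phase 1-specific peaks (50.0%, 23.7 to 76.3, against 75.0% of all Phase 1-specific peaks) and p300 at 7 of 10 (70.0%, 39.7 to 89.2, against 79.6%). LP CTCF was found at 3 of 5 LP-specific peaks (60%, 23.1 to 88.2, against 36.8%). With so few peaks these intervals are wide, and each includes the share of the whole list.

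**Figure D3:**
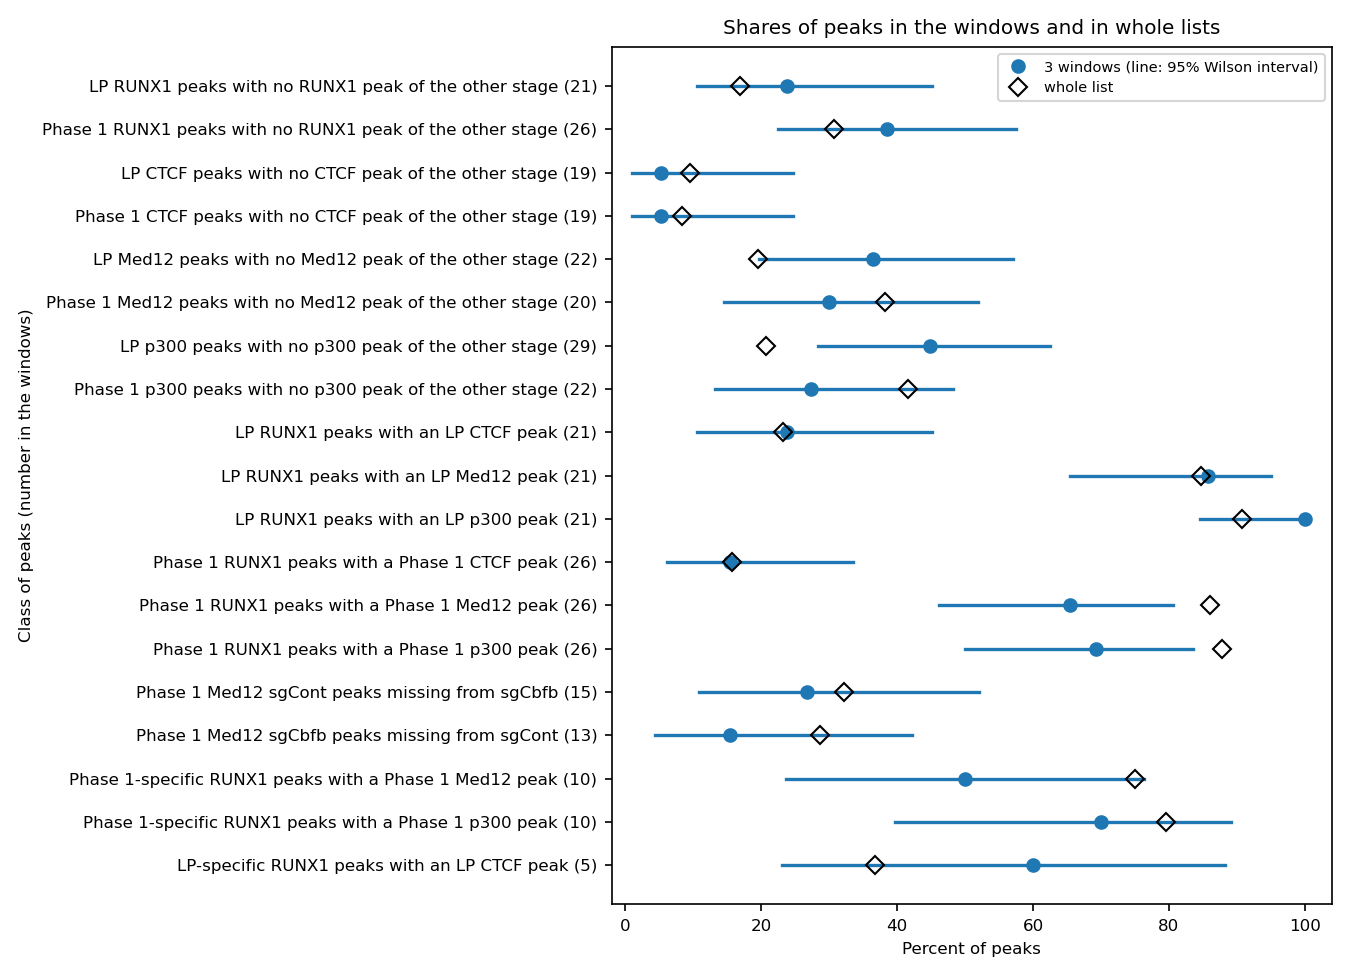
Filled circles give the percent of peaks (x axis) in the 3 windows that met each description on the y axis, with the number of peaks in brackets, lines give 95% Wilson intervals, and open diamonds give the whole list. The diamond lies outside the line for LP-specific p300 (44.8% against 20.7%) and for Phase 1 RUNX1 with Med12 (65.4% against 86.0%) and with p300 (69.2% against 87.8%) and narrowly for LP-specific Med12 (36.4% against 19.5%).

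The lists with guides were read for Med12 with and without Cbfb, the partner through which RUNX proteins bind stably to DNA. Of 15 sgCont Med12 peaks in the windows, 4 were missing with sgCbfb (26.7%, 10.9 to 52.0, against 32.2% of the list). In the reverse direction 2 of 13 sgCbfb peaks were missing with sgCont (15.4%, 4.33 to 42.2, against 28.6%). The 4 were the sites 12.3 and 15.6 kb upstream of Cd4, 2.92 kb upstream of Zbtb7b, and a weak peak in intron 9 of P3h3 (16.7). A Phase 1 RUNX1 peak overlapped all 4 of them, and also 8 of the 11 sgCont Med12 peaks kept with sgCbfb. This overlap was not counted over the whole list, so these counts are not read as a difference between lost and kept peaks. The 2 sgCbfb peaks missing with sgCont were the site 10.3 kb upstream of Cd4 and the Dcst1 intron. Med12 peaks at the promoters of Zbtb7b, Flad1, Shc1 and Pygo2 were listed with both guides. So were peaks outside promoters, among them those 33.5 kb upstream of Cd4 (25.3 with sgCont and 29.4 with sgCbfb) and in intron 1 of Pbxip1 (22.4 and 29.3).

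The RUNX1 lists of guide-bearing cells were short and had few peaks here. Of 21 LP RUNX1 peaks 2 were found with sgCont (9.52%, against 2.98% of the list) and 0 with sgCTCF (against 2.69%). Of 26 Phase 1 peaks 1 was found with sgCont (3.85%, against 3.98%) and 1 with sgMed12 (3.85%, against 5.34%). A missing peak in lists of this length, from 874 to 2094 peaks, says little about a site.

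Notch1-IC had no peak in the windows at any stage, in lists of 1585 peaks in LP, 152 in Phase 1 and 352 in Phase 2. Only 3.56% of all protein-coding genes had a Notch1-IC peak of Phase 1 or 2 in such a window, so having none of those stages is usual. The share of genes with an LP Notch1-IC peak was not counted, so the absence from that list has no such comparison. The Notch1-IC peak nearest to any window was a Phase 2 peak 118 kb beyond the Cd8 window. The nearest to Cd4 and Zbtb7b were LP peaks 284 and 425 kb beyond the windows.

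RUNX strings were about as frequent under these RUNX1 peaks as under others. In the 200 bp around the centre, 12 of 26 Phase 1 peaks held a RUNX core string (46.2%, 28.8 to 64.5), against 47.6% of the whole list, and 7 of 21 LP peaks (33.3%, 17.2 to 54.6), against 42%. The longer strings TGTGGTT or TGCGGTT were in 6 of 26 and 2 of 21 peaks, against 25.4% and 21.2% of the lists. The longer string overlaps the core and was part of 3 of the sequences shown, those of Cd4 intron 1, 10.3 kb upstream of Cd4 and upstream of Cd8b1. The 3 promoter peaks with the highest scores in the Zbtb7b window, those of Zbtb7b, Pygo2 and Shc1, held no RUNX core in either stage. GAGGAAGT, a string bound by PU.1, was in 1 of 26 Phase 1 peaks, against 8.62% of the list, and GTGGGAA, bound by the Notch partner RBPJ, in 1 of 26, against 5.28%.

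Peak density was also set beside that of 21911 protein-coding genes with windows of the same kind. Phase 1 RUNX1 peaks numbered 11.3 per 100 kb around Cd4 and 9.39 around Zbtb7b, against a median gene of 2.64, and 98.8% and 96.0% of genes had a lower density. The Cd8 window had 0.639 per 100 kb, with 24.7% of genes lower and 22.1% without any peak. LP RUNX1 gave 8.91 around Cd4, 8.54 around Zbtb7b and 0 around Cd8, against a median of 2.19 and with 24.7% of genes without any peak. The LP p300 density around Cd4, 13.0 per 100 kb, was higher than that of 99.6% of genes. Peaks here belong to all genes of a window, and Cd4 and Zbtb7b sit among many genes, so a density is not assigned to the gene it is named for.

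The genes whose counts over the 17 lists came nearest were Spata13, Stum and Tmem208 for Cd4, each with a summed difference of 12 peaks from its 105. For Zbtb7b they were Ccdc28b and Lrrc8d, each differing by 8 peaks from its 92, and Tcirg1, differing by 9. For Cd8 they were Clu, H2-M10.3 and Iqsec3, each differing by 2 peaks from its 13, with a further gene at the same distance.

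Other regulators of coreceptor choice were read in windows from 50 kb before to 50 kb after each gene, which ran from 103 kb at Socs1 to 405 kb at Tox. This list held 13 genes, among them Runx3 and Runx1, which encode RUNX proteins, Gata3, Tox and Myb, which act upstream of ThPOK, and Patz1, Satb1, Tcf7, Lef1 and Bcl11b. Phase 1 RUNX1 peaks numbered from 5 at Gata3 and Satb1 to 23 at Runx1, with a median of 9. More RUNX1 peaks in Phase 1 than in LP were found at 11 of 13 genes, against 36.4% of all protein-coding genes. The exceptions were Cbfb with 9 in LP and 8 in Phase 1, and Zbtb7a with 9 in each. At least 1 Phase 1-specific RUNX1 peak lay near 12 of the 13 genes, against 52.2% of all genes, and at least 1 LP-specific peak near 9, against 38.3%. Notch1-IC of Phase 1 or 2 was listed near 4 of them, namely Runx3, Myb, Patz1 and Tcf7, against 3.56% of all genes. The windows of the list were longer than most, with a median of 147 kb against 117 kb over all genes, and were not matched for length or gene density in these shares. The shares over all genes also include the 22.1% with no Phase 1 RUNX1 peak, whereas each listed gene had at least 5. In addition, the whole RUNX1 list was longer in Phase 1, with 38399 peaks against 31995 in LP. Per 100 kb, Phase 1 RUNX1 peaks ran from 2.47 at Tox to 11.6 at Socs1. On that scale Cd4, at 11.3, lay near the upper end of the list and Zbtb7b, at 9.39, below only Socs1 and Runx3 of its genes. Cd8b1, at 0.872, and Cd8a, at 0, lay below all 13 genes.

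**Figure D4:**
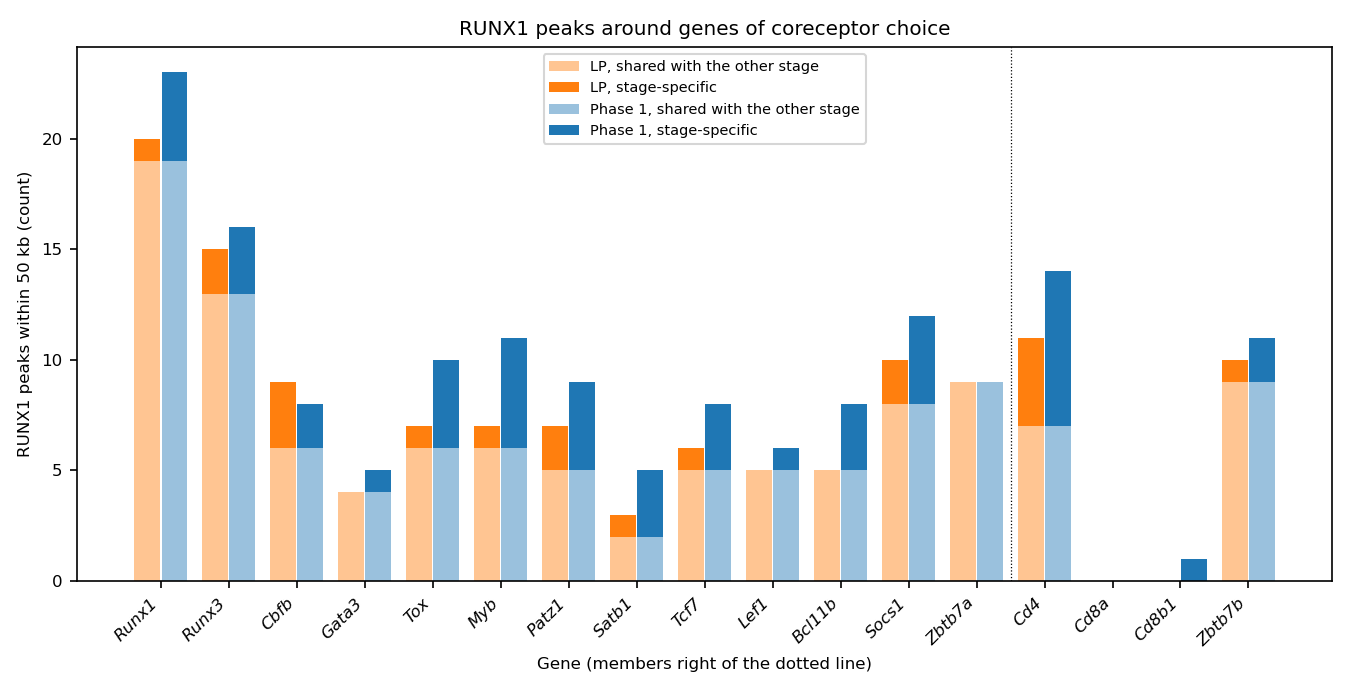
Bars give the number of RUNX1 peaks (y axis) within 50 kb of each gene in LP (orange) and Phase 1 (blue), with the full colour for stage-specific peaks; windows differ in length. Phase 1 counts run from 5 to 23 for the 13 listed genes, and stand at 14 for Cd4, 0 for Cd8a, 1 for Cd8b1 and 11 for Zbtb7b.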

How the data were processed

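Chromatin immunoprecipitation of RUNX1, CTCF, Med12, p300 and Notch1-IC was sequenced in 38 samples in 19 groups of 2. Per the labels and methods, the authors aligned reads to mm10 with Bowtie 1.1.1, called peaks with HOMER (version not given in the sources used here) and kept peaks reproducible between replicates. The deposited score of each peak is the authors' peak score, whose scale the file headers do not state. It was used only within a list. The 17 lists had scores of at least 15, and 2 input groups had no list. Read depth per sample was not used here, and a shorter list can reflect depth as well as binding.

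Peak positions are 1-based mm10. Gene bodies came from GENCODE M21, and the genome was read with pysam 0.24.0 and samtools 1.23.1. No peak ran past a chromosome end of that genome. Peaks sharing at least 1 bp were called overlapping, and a peak with none in the other stage was called stage-specific. Shares carry 95% Wilson intervals. Strings were searched on both strands in the 200 bp around each centre, in the RUNX1 and CTCF lists without guides, leaving out 51 peaks off the named chromosomes. Python 3.11.15 was used, and the overlap code was tested on simulated data.

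Sites were named if they had a RUNX1 peak inside a gene of the set, within 5 kb before its start or between Cd8b1 and Cd8a; a stage-specific RUNX1 peak, a Notch1-IC peak or a RUNX1 peak with guides anywhere in the windows; or 1 of the 3 highest RUNX1 scores per window and stage. Other peaks at Cd4, Cd8a and Flad1 and in the Cd8 window, and Med12 peaks that differed between guides, were named after their values were seen. The genes and lists were chosen with earlier results of these data known. No test between groups was run, because lists combine the replicates. Alternatives were the window (25 and 100 kb), a minimum score of 30, overlap of at least 0.5 of the shorter peak, peaks within 500 bp, lists of equal length, and promoter peaks left out.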

Additional observations from a re-analysis of the deposited data

How the results depend on the processing

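No paired analysis was possible because each list combines both replicates, and for the same reason no replicate could be left out in turn. Of 102 alternative values for shares, 99 stayed within the Wilson interval of the reported share. The exceptions were LP-specific CTCF, which was 0 of 12 peaks (0.0%) with 25 kb windows, and the RUNX string, which with 7 letters fell to 9.52% of LP and 23.1% of Phase 1 RUNX1 peaks. The intervals are wide and the settings reuse many of the same peaks, so staying inside them is a loose check. Against the share of the whole list, LP-specific p300 and Phase 1 RUNX1 with p300 stayed outside the interval in every setting run, the latter narrowly with 100 kb windows (87.8% against an upper bound of 87.2) and a minimum score of 30 (88.9% against 88.8). In contrast, LP-specific Med12 came inside it with 100 kb windows (30.8%, 18.6 to 46.4, against 19.5%), peaks within 500 bp (31.8%, against 18.1%) and lists of equal length (45.5%, against 27.4%), and Phase 1 RUNX1 with Med12 with 100 kb windows (77.3%, against 86.0%) and without promoter peaks (66.7%, against 84.1%). Counts followed the window. With 25 kb, the Cd4 window held 66 peaks at 17 sites and the Zbtb7b window 56 at 11. With 100 kb the counts were 172 peaks at 42 sites for Cd4, 54 at 17 for Cd8 and 166 at 37 for Zbtb7b. A minimum score of 30 left 4 sites around Cd8. Of the 10 Phase 1-specific RUNX1 peaks, 4 fell below a score of 30, that of Cd4 intron 1 among them, and 2 were no longer specific when peaks within 500 bp counted. Of the 5 LP-specific peaks, 2 fell below a score of 30 and 1 was no longer specific within 500 bp. The lists do not show how many reads lie behind a peak or a missing peak, so a site just under the authors' threshold in 1 stage reads as stage-specific.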
